A study of Mus musculus with 6 samples.

Results

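The 4 genes C1ql2, Prox1, Lrrtm4 and Gabrd carry the identity and the synapses of the dentate granule cell, the principal neuron of the dentate gyrus, and they were taken by symbol from a table of 475 genes that the authors listed as differing between 2 groups of mice. All 4 symbols were found, each in 1 row. The mice of the CI-994 group received daily injections of the benzamide CI-994 at 30 mg/kg, which inhibits class I histone deacetylases, enzymes that take acetyl groups off histones, and the mice of the VEH group received its vehicle. Each group held 3 C57Bl/6 mice of 4 months, and both had learned to fear a context, been reminded of it and then undergone spaced extinction training. RNA came from the whole hippocampus of a single hemisphere, taken 1 h after the last extinction session, so each value is an average over granule cells, pyramidal cells, interneurons, glia and attached tissue. The genes were chosen from this same contrast: their group values and the direction of log2(CI-994/VEH) made the choice, and these are given below as a description without a test.

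Granule cells receive the input of the entorhinal cortex on their dendrites in the molecular layer and pass it to hilar mossy cells and CA3 pyramidal cells through the mossy fibres. The homeobox transcription factor Prox1 marks the granule cell from its birth and keeps it from taking a CA3 fate in the mouse. At the mossy fibre synapse, the secreted C1q-like proteins C1ql2 and C1ql3 bind neurexin 3 and gather kainate-type glutamate receptors on the CA3 side. On the granule cell's own dendrites, the adhesion protein Lrrtm4 binds heparan sulfate proteoglycans such as glypicans and organises excitatory synapses. The delta subunit of the GABA-A receptor, Gabrd, forms receptors outside the synapse that carry tonic inhibition.

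Because the 4 genes were listed as lower together, the 250 bases before their annotated starts are shown for the first start of each gene in RefSeq's promoter table (build GRCm38.p6), which matched C1ql2, Prox1 and Lrrtm4; Gabrd is named only. The C1ql2 window is chr1:120340332-120340581 on the plus strand, the Prox1 window chr1:190170828-190171077 on the minus strand and the Lrrtm4 window chr6:80018627-80018876 on the plus strand. Each runs 5′ to 3′ along its gene and ends at the base before the start. Capitals mark every match, on either strand, to an E-box (CANNTG), a GC box (GGGCGG) or a TATA box (TATAAA).
C1ql2: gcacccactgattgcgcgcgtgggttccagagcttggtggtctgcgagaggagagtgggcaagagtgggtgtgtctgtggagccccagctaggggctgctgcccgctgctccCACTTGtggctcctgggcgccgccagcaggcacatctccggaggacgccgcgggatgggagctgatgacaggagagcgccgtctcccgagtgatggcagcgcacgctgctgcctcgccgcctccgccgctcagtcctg
Prox1: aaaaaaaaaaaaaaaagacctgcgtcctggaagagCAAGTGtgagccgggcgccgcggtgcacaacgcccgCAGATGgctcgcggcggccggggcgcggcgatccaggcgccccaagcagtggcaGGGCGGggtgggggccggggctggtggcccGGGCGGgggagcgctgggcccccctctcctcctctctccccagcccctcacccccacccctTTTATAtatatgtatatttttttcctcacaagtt
Lrrtm4: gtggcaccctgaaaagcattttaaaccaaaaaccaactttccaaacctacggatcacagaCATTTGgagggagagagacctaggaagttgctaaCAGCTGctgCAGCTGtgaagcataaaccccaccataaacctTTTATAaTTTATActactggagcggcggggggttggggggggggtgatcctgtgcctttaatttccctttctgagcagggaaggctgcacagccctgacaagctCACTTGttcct

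The 3 windows shown held 1 E-box for C1ql2, 2 for Prox1 and 4 for Lrrtm4. Prox1 and Lrrtm4 each have a second start in the RefSeq table, whose windows are not shown: that of Prox1 held 1 GC box and 0 matches to the other motifs, and that of Lrrtm4 held 2 E-boxes and 0 matches to the others. An E-box is common, as 66.2% of the 32841 windows of this length in the table hold it. The NeuroD-type E-box CAGATG, which is itself a CANNTG match, occurred in the Prox1 window at position -179 (the first base of the match, with -1 the base before the start) and in 14.4% of all windows. A match to the TATA box began at position -34 of the Prox1 window, and 2 lay in the Lrrtm4 window, against 12.4% of all windows with a match. Each of these matches reads TTTATA along the gene, so TATAAA itself lies on the opposite strand. The GC box had 2 matches for Prox1, against 32.7% of all windows. The 50 bases after this Prox1 start do not occur in the GENCODE M21 transcripts of Prox1, as those of C1ql2 and Lrrtm4 do in theirs, so positions in the Prox1 window rest on the RefSeq start alone. The short CRE motif TGACG, the AP-1 site TGANTCA and the short NFI motif TTGGCA had no match in the 3 windows shown, and occurred in 17.8%, 6.75% and 12.3% of all windows. Base composition differed between the genes, with a GC content of 68.8% for C1ql2, 64.8% for Prox1 and 49.2% for Lrrtm4, against a median of 52.4% over all windows. The C1ql2 and Prox1 windows each held 20 CpG dinucleotides and the Lrrtm4 window 3.

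All 4 genes were lower in the CI-994 group, and C1ql2 stood apart from the other 3. Its group value in CI-994 mice was 20.0% of that in VEH mice, while Prox1, Lrrtm4 and Gabrd kept between 53.3% and 58.9% of theirs. In the table as a whole, 58.1% of the genes were lower in CI-994 and 41.9% were higher. Since the direction was part of the choice, nothing is read from the 4 of 4. The authors had combined the 3 mice of each group into 1 value, in arbitrary units per the file header, so the values below carry no error, the depth behind them is unknown, and it cannot be said whether the groups overlapped mouse by mouse. In whole-tissue RNA, fewer granule cells, less RNA per granule cell and a different share of other cells or attached tissue cannot be told apart. Which group is lower was read from the labels of the 2 value columns; the log2 column of the table has the opposite sign to its heading in all 475 rows, and exchanged value labels would turn each direction given here.

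C1ql2, the mossy fibre synaptic organiser, was at 10.5 units in CI-994 mice, against 52.5 units in VEH mice. That is 4.99-fold lower, a log2 ratio of -2.32. Of the 475 genes, 3 had a lower ratio (Uty, Ddx3y and Ctxn3), and none of those reached 1 unit in CI-994 mice. The authors' deposited table gives its p-value as 0. The row covers chromosome 1 from 122237158 to 122239751 on mm9, and its span of 2593 bases equals that of the annotated 2-exon gene in RefSeq.

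Prox1, which specifies the granule cell, had a group value of 12.6 units in CI-994 mice and 23.1 units in VEH mice. The value was 1.83-fold lower, a log2 ratio of -0.87, and 48 genes of the table had a lower ratio. The authors' deposited table gives p = 5.35e-07, which ranks 12 among the 276 genes that were lower. The row covers chromosome 1 from 191945657 to 191994559 on mm9. The antisense gene Prox1os overlaps the 5′ end of Prox1: 1.00% of the 50-base stretches of Prox1's GENCODE transcripts also occur in Prox1os, with strand handling not given in the sources used here.

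Lrrtm4, the postsynaptic adhesion protein, was at 7.20 units in CI-994 mice and 13.5 units in VEH mice, which is 1.88-fold lower (log2 ratio -0.91). In the authors' deposited table its p-value is 0.000105, and 43 genes had a lower ratio. Its row, on chromosome 6 from 79968870 to 79974926 in mm9, spans 6056 bases, or 0.765% of the 791305 bases of the RefSeq gene. GENCODE M21 lists 8 Lrrtm4 transcripts, of which 5 span less than 10 kb and 3 span more than 100 kb by way of a far last exon. The row therefore does not reach the end of the long forms, the counting of their reads being not given in the sources used here. Gm4409, an antisense gene, shares 24.0% of the 50-base stretches of the Lrrtm4 transcripts, so without known strand handling reads of the 2 genes cannot be told apart there.

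Gabrd, the extrasynaptic GABA-A receptor subunit, was at 9.48 units in CI-994 mice and 16.1 units in VEH mice. It was 1.70-fold lower, with a log2 ratio of -0.76, the smallest difference of the 4. The authors' deposited table gives p = 0.00172. Its row covers chromosome 4 from 154759087 to 154772178 on mm9, 99.8% of the length of the RefSeq gene. No 50-base stretch of the GENCODE transcripts of Gabrd or of C1ql2 occurs in another gene's transcripts.

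**Figure D1:**
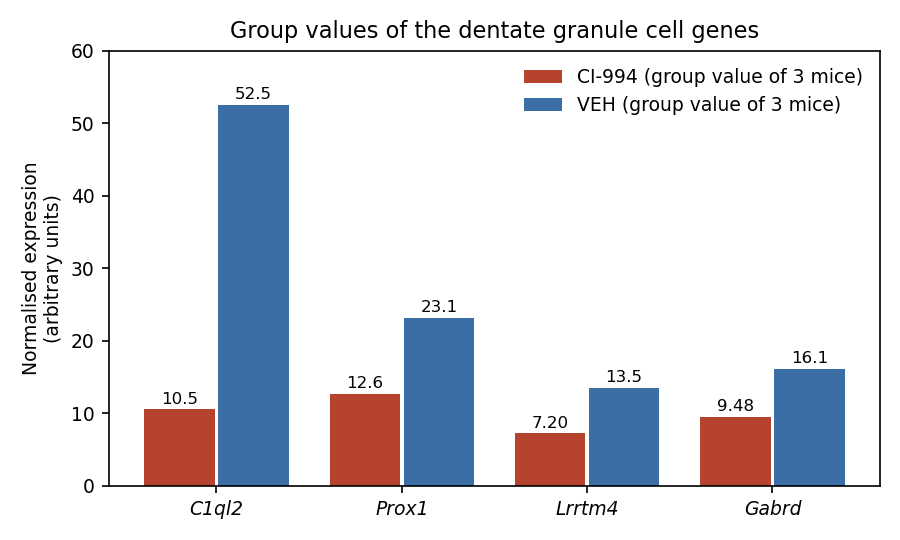
Group values of C1ql2, Prox1, Lrrtm4 and Gabrd in arbitrary units, with the CI-994 bar left of the VEH bar for each gene; each bar is the authors' single value for 3 mice, so there is no error bar. The CI-994 bars lie between 7.20 and 12.6 units, and C1ql2 has the tallest VEH bar, at 52.5 units.

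Genes that mark the choroid plexus, which makes cerebrospinal fluid, moved against the granule cell markers in the same libraries. Of 30 choroid markers the table held 29, and no value is known for the other, Ttr. Each of the 29 was higher in CI-994 mice, where 41.9% of all genes in the table were higher. The list was written with earlier results of these data known. The summed level of the 29 was 683 units in CI-994 mice and 153 in VEH mice. A single gene, Enpp2, gave 377 of these units in CI-994 mice and 75.3 in VEH mice. None of the 29 was at 0 in either group, the lowest being 2.97 units in CI-994 and 0.223 in VEH mice. In VEH mice 13 of the 29 were below 1 unit. Xist, the RNA of the inactive X chromosome, had 25.3 units in CI-994 and 8.46 in VEH mice, and the Y-linked Ddx3y was at 0.0503 in CI-994 and 7.73 in VEH mice, so the groups also differed in RNA that depends on the sex of the mice, which the labels do not give. The part of either in the lower values of the granule cell genes was not tested. Single astrocyte and endothelial markers were in the table, Aqp4 (-0.34) and Vwf (-0.51), and no marker of the oligodendrocyte lineage or of microglia.

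Within the 4 genes, 3 kept nearly constant proportions to one another, with shifts between the groups of at most 1.11-fold. From the lowest log2 ratio in the table, Lrrtm4 ranks 44, Prox1 49 and Gabrd 65. Genes off the dentate list, such as Serpinf1 (-0.84) and Npy5r (-0.78), lie between them. The 4 genes were chosen from these values, so nothing is read from the near constancy. The ratio of Prox1 to Lrrtm4 was 1.75 in CI-994 mice and 1.71 in VEH mice, that of Prox1 to Gabrd 1.33 in CI-994 and 1.44 in VEH mice, and that of Lrrtm4 to Gabrd 0.760 in CI-994 and 0.840 in VEH mice. C1ql2 did not share these proportions. Relative to Prox1 it was at 0.832 in CI-994 mice and 2.27 in VEH mice, a difference of -1.45 between the log2 ratios of the 2 genes, or 2.73-fold. Against Lrrtm4 and Gabrd the difference was 2.66-fold and 2.94-fold. The change of these proportions has no error here and was not tested.

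The other markers of the granule cell in the table were lower as well. Of 28 further markers on a list of 32, the table held 20, and each of the 20 had a lower value in CI-994 mice, with a median log2 ratio of -0.79, against -0.34 for all genes in the table and -0.50 for the genes that were lower. The list was written with the direction of 9 of its genes in these data known, the 4 genes above among them. Without those 9, the table held 15 of 23 markers, each of them lower (median log2 ratio -0.69), where 58.1% of all genes in the table were lower. The 8 markers that are not in the table were Tdo2, Il16, Glis3, Pdzd2, Ahcyl2, Slc39a6, Il1rapl2 and Scn3a, and no value is known for them. At least 2-fold lower were 7 of the 20 markers, or 4 of the 15 whose direction was not known. Over the whole table this held for 34 of the 276 lower genes, or 7.16% of all genes, the higher genes included. Of these 34 genes, 8 were on the dentate list.

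C1ql2 had the lowest log2 ratio of the 24 markers, by 1.53 below the median of the 20 others beside the 4 genes. Next came the opioid peptide precursors Pdyn, at 3.47 units in CI-994 and 9.90 in VEH mice (log2 ratio -1.51), and Penk, at 9.91 in CI-994 and 27.3 in VEH mice (-1.46), which many neurons outside the dentate gyrus also express. Desmoplakin, Dsp, a desmosome protein that marks granule cells in the mouse hippocampus, had 5.59 units in CI-994 and 13.4 in VEH mice (-1.26). The cation channel gene Trpc6 followed at 2.15 units in CI-994 and 5.00 in VEH mice (-1.22).

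Prox1 and Lrrtm4 stood in the middle of the list, each with 8 of the 20 other markers below it and 12 above, and Gabrd had 12 below and 8 above. Near them were C1ql3, the close relative of C1ql2, at 45.6 units in CI-994 and 86.6 in VEH mice (log2 ratio -0.92), Sema5b (-0.83), the presynaptic glutamate receptor Grm2 (-0.80), Lct (-0.77) and Fam163b, at 59.1 units in CI-994 and 100.3 in VEH mice (-0.76). Cntnap5a (-1.08), Stxbp6 (-1.03) and the axon guidance gene Sema5a (-1.03) were lower by more. Maml2 (-0.69), the polo-like kinase Plk5 (-0.67), the matrix protein Npnt (-0.65) and Dock10 (-0.60) were lower by less. The smallest differences were those of the transcription factor Rfx3 (-0.40), the phosphatase inhibitor Ppp1r1a (-0.38), Pitpnc1 (-0.37) and the calcium buffer Calb1, at 35.0 units in CI-994 and 44.5 in VEH mice (-0.35). For the 15 markers in the table whose direction was not known beforehand, the p-values are those of the authors' deposited table. A p-value up to 0.01 was given for 9 of the 15, and one up to 0.001 for 7. With the 5 other known markers the counts are 14 and 10 of 20. Among all 276 lower genes, 124 have a p-value up to 0.01 and 54 have one up to 0.001. Those lower genes made up 26.1% and 11.4% of all genes, the higher genes included. Whether the markers differ from the lower genes in this was not tested.

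**Figure D2:**
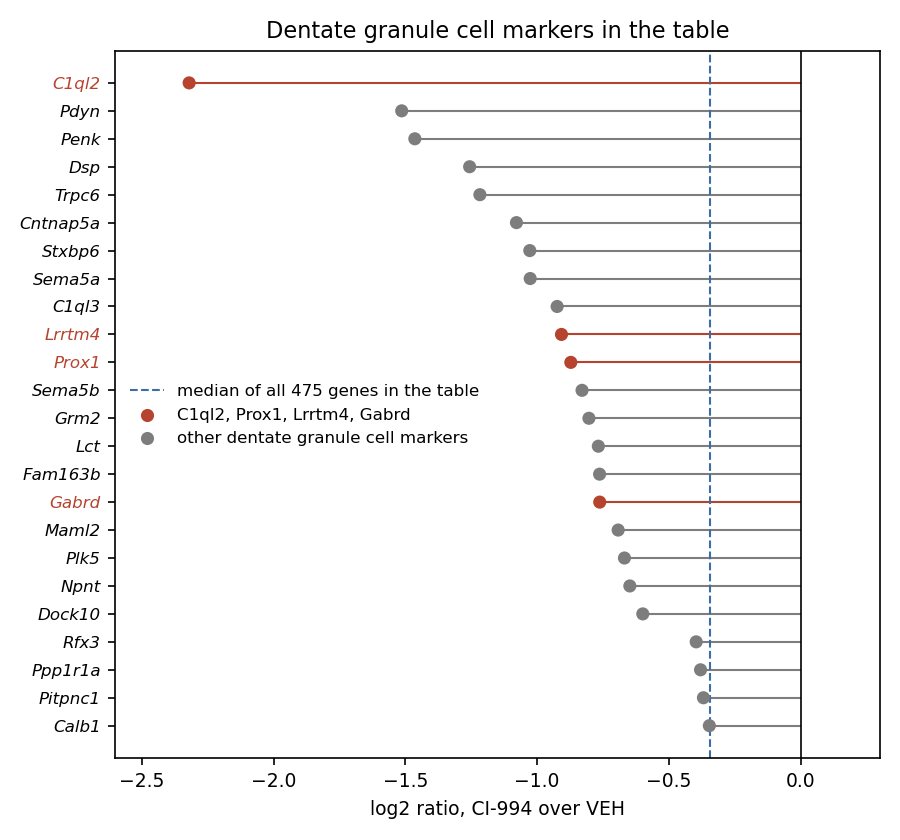
Log2 ratio of CI-994 over VEH group values for the 24 dentate granule cell markers in the table, 1 row per gene, with C1ql2, Prox1, Lrrtm4 and Gabrd in red and the median of all genes in the table as a dashed line. The points run from -2.32 for C1ql2 to -0.35 for Calb1, and Prox1, Lrrtm4 and Gabrd lie between -0.91 and -0.76.

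Few of the direct partners of the 4 proteins were in the table. Of 19 genes for C1q-like proteins, cerebellins, neurexins, kainate receptors and their auxiliary proteins, 4 were listed and all 4 were lower: C1ql2, C1ql3, the presynaptic receptor Nrxn3, at 34.4 units in CI-994 and 43.4 in VEH mice (log2 ratio -0.33), and the kainate receptor subunit Grik3, at 4.15 in CI-994 and 5.62 in VEH mice (-0.44). The authors' deposited table gives p-values of 0.0400 for Nrxn3 and 0.0211 for Grik3. The direction of C1ql2 was part of its choice, and C1ql3 was already counted among the dentate markers. Only Nrxn3 and Grik3 are thus added here. Since 58.1% of all listed genes were lower, nothing is read from the 4 of 4. Of the other kainate receptor genes, Grik1, Grik2, Grik4 and Grik5 were not in the table. The log2 ratio of C1ql2 thus lay below that of C1ql3, though both are mossy fibre proteins of 1 family.

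Of 34 leucine-rich repeat adhesion genes, glypicans, syndecans and related synaptic genes, the table held Lrrtm4 and Gpc4. Gpc4 encodes glypican 4, a heparan sulfate proteoglycan that binds Lrrtm4, and had 12.04 units in CI-994 and 17.8 in VEH mice (log2 ratio -0.57, p = 0.00678 in the authors' deposited table). The relatives Lrrtm1, Lrrtm2 and Lrrtm3 were not listed. Of 23 GABA-A receptor subunit and anchoring genes, Gabrd and the subunit Gabra5 were listed. Gabra5, which in the hippocampus is most abundant in pyramidal cells, had 94.7 units in CI-994 and 119.0 in VEH mice (-0.33, p = 0.0244 in the authors' deposited table). Gabra4, whose product pairs with the delta subunit in granule cells, was not listed.

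Transcription factors and markers of the granule cell lineage other than Prox1 were mostly not listed, with 2 of 22 in the table. Sox11, a factor of newborn neurons, had 1.24 units in CI-994 and 1.98 in VEH mice (log2 ratio -0.68). Tbr1, a factor of glutamatergic neurons that is also strong in the cortex, was higher, at 33.1 units in CI-994 and 25.9 in VEH mice (0.35). The authors' deposited table gives p-values of 0.0195 for Sox11 and 0.0233 for Tbr1. Neurod1, Neurod2, Bcl11b, Zbtb20, Klf9, Eomes and Dcx were among the 20 that were not in the table.

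Pyramidal cell markers that were in the table were lower too, and interneuron markers were divided. Of 16 CA1 pyramidal markers 4 were in the table, all 4 lower, with a median log2 ratio of -0.56, led by Wfs1, at 42.6 units in CI-994 and 71.0 in VEH mice. Of 19 CA3 and CA2 markers 5 were in the table, all 5 lower (median -0.67), led by Cacng5, at 2.96 units in CI-994 and 8.05 in VEH mice. These counts stand beside 58.1% lower among all listed genes, and nothing is read from the 4 of 4 or the 5 of 5. As a share of each list, 25.0% of the CA1 markers and 26.3% of the CA3 and CA2 markers were listed as lower. Of the dentate markers whose direction was not known 65.2% were listed as lower (71.4% of all but the 4 genes above). The median log2 ratio of those listed was -0.69 (-0.79 for all but the 4 genes), against -0.67 for the CA3 and CA2 markers and -0.56 for CA1. Genes of known direction were left out of the dentate list only. Whether the lists differ was not tested, since they were written with earlier results known. Of 13 mossy cell markers the table held Calb2 (-0.52), and of 18 interneuron markers Vip (0.69), Reln (-0.39) and 6330527O06Rik, now named Lamp5 (-0.66).

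**Figure D3:**
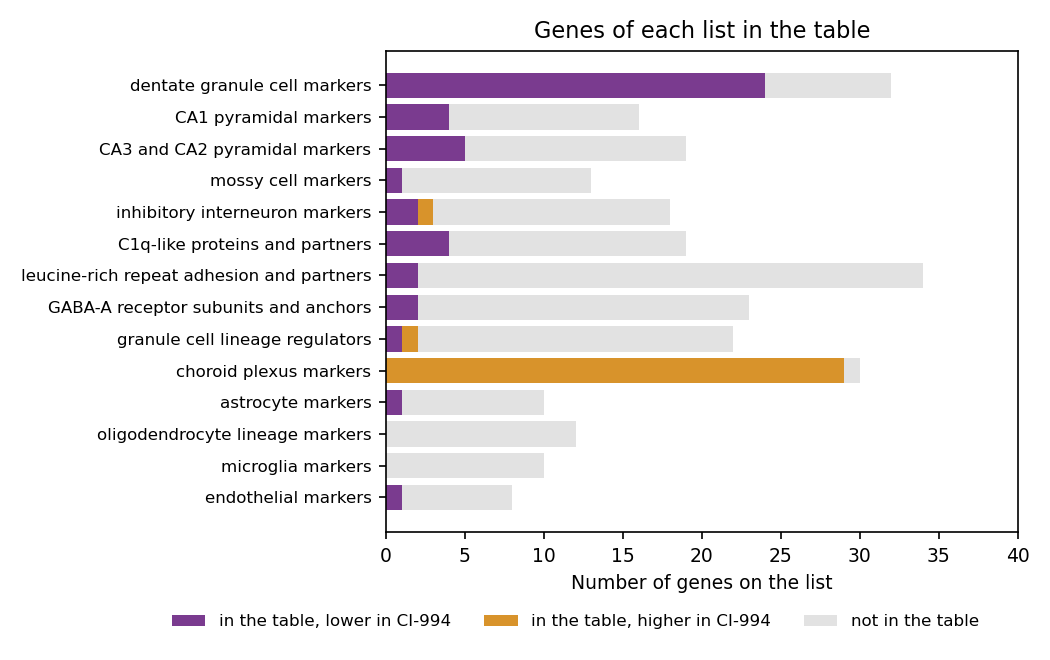
Number of genes on each list that were in the authors' table and lower in CI-994 (purple), in the table and higher (orange), or not in the table (grey); the dentate list includes C1ql2, Prox1, Lrrtm4 and Gabrd. The dentate bar has 24 of 32 genes lower, and the choroid plexus bar has 29 of 30 higher.

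**Figure D4:**
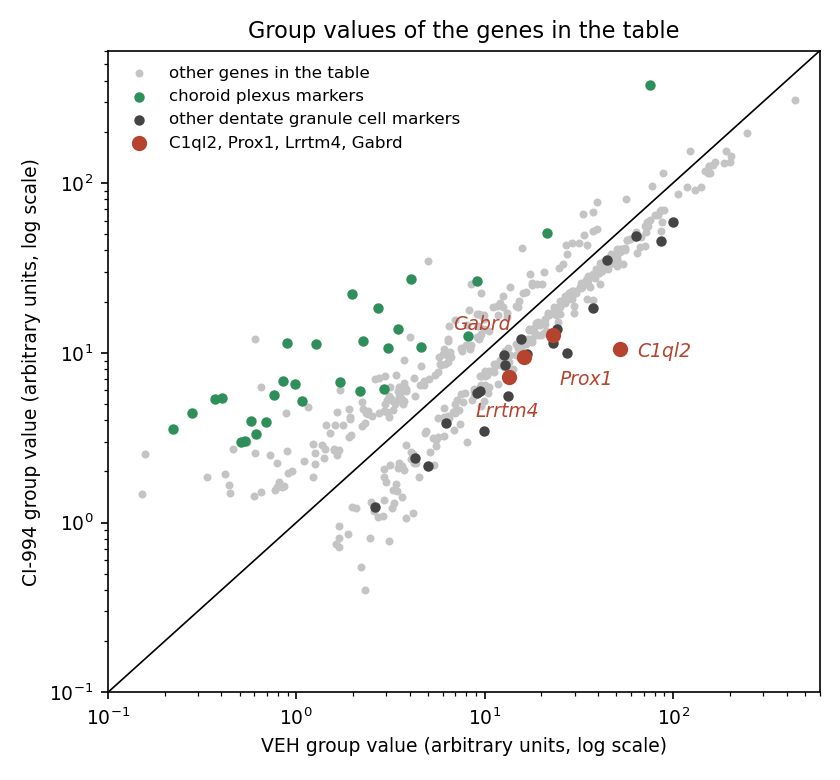
CI-994 group value against VEH group value for each gene in the table, both in arbitrary units on log scales, with the line of equal values; Ddx3y and Uty, below 0.1 units in CI-994, lie outside the axes. C1ql2, Prox1, Lrrtm4 and Gabrd (red) and the 20 other dentate markers (black) lie below the line and the 29 choroid plexus markers (green) above it.

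The genes whose pair of group values was most like each of the 4 were found by the distance between log2 values in both groups, over the 427 genes with at least 1 unit in each. That likeness rests on 2 group values only, and no source used here says whether the units are per transcript length. C1ql2 had no near neighbour: the closest were Stxbp6, at a distance of 0.94 log2 units, and Penk, also at 0.94, followed by Npy2r (1.07), Doc2b (1.07) and Rasl10a (1.15). Prox1 was closest to Sema5a (0.15), Grm2 (0.15), 6330527O06Rik (0.15), Rprm (0.17) and Cebpb (0.21). Lrrtm4 was closest to Ccdc3 (0.05), Prkcd (0.17), Plekha2 (0.21), Spsb1 (0.22) and Serpinf1 (0.23). Gabrd was closest to Smoc2 (0.06), Lct (0.09), Npy1r (0.14), Sipa1l2 (0.19) and 1190002N15Rik (0.20). Of these 20 places, 5 were taken by genes on the dentate list, which made up 5.62% of the 427 genes; as the distance uses the values that chose the 4 genes, nothing is read from this count.

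The nearest genes of the table on the same chromosome did not share a direction. Inhbb, 918 kb from C1ql2 on mm9, was higher (log2 ratio 0.74), and Sertad4, 2676 kb from Prox1, was lower (-0.46). Slc4a5, a choroid plexus transporter 3212 kb from Lrrtm4, was higher (3.99), and so was Plch2, 374 kb from Gabrd (0.34).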

How the data were processed

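RNA sequencing of 6 hippocampi, 3 per group, was processed with TopHat and Cuffdiff on mm9, per the submitters' processing notes. For their versions, the annotation, normalisation, strandedness and filters, nothing was given in the sources used here. The authors' deposited table gives 475 genes, each with 1 normalised expression signal per group in arbitrary units, a log2 fold change and a p-value, per the file headers. All p-values lie below 0.05, and how many genes the authors tested is not stated in the sources used here. Neither depth nor values of single mice were analysed here, so no interval or test across mice was computed.

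The deposited log2 column, headed CI-994 vs VEH, equals log2 of VEH over CI-994 in all 475 genes (within 0.0001). The direction of each gene was therefore read off the labelled group values, as log2(CI-994/VEH), without a pseudocount. If those labels were exchanged, every direction would turn around.

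The 4 genes, the 14 gene lists, the rule for named genes and the alternatives were chosen with earlier results of these data known. The rule took the 4 genes, all table genes on the dentate, lineage, C1q-like, leucine-rich repeat and GABA-A lists, up to 3 genes of each other list, and the nearest genes by value and position. Uty, Ddx3y, Ctxn3, Xist, Enpp2 and Npy5r were named after their values were seen. Older symbols were matched through RefSeq (GRCm38.p6) and GENCODE M21, 474 of 475 in all. Counts of list members stand beside those over all table genes, with no set test. Scripts were tested on simulated data. Python 3.11.15, numpy 2.4.6, pandas 2.3.3 and matplotlib 3.10.9 were used.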

Additional observations from a re-analysis of the deposited data

How the results depend on the processing

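No paired analysis was possible because the table holds 1 value per group, and for the same reason no replicate could be left out. As the values carry no error, a log2 ratio is called moved here when its second decimal changed. With a pseudocount of 0.1 units C1ql2 was at -2.31 and Lrrtm4 at -0.90, while Prox1 and Gabrd stayed at -0.87 and -0.76. With a pseudocount of 1 the log2 ratios were -2.22 for C1ql2, -0.82 for Prox1, -0.82 for Lrrtm4 and -0.70 for Gabrd. Scaled to the median of all genes in the table they were -2.37, -0.92, -0.96 and -0.81, and scaled to the median of genes on no choroid plexus list, a setting chosen after seeing the data, -2.24, -0.79, -0.83 and -0.68, in the same order. With the sign of the deposited log2 column taken as headed, they turn to 2.32, 0.87, 0.91 and 0.76, and 0 dentate markers are lower, by construction.

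The 24 dentate markers that were lower became 18 at a deposited p up to 0.01, 13 at 0.001, 24 and 19 with at least 1 and 5 units in both groups, 20 without the 4 genes and 15 without the genes whose direction was known, a setting added after the data were seen; each admits fewer genes. The share of all table genes that were lower was 58.1%, against 52.5% at p up to 0.01, 43.9% at 0.001, 62.1% with at least 1 unit and 71.9% with at least 5 units in both groups, where the cause was not tested. All 24 dentate markers are lower in the whole table, so the direction of any part of them is fixed. Depth is unknown, so what a larger experiment would resolve cannot be stated.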

Other observations

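The table gives a p-value of 0 for 6 genes. C1ql2 is the only one of them that was lower in CI-994 mice, and the 5 others, F5, Prlr, Clic6, Sostdc1 and Ace, are on the choroid plexus list and were higher. These genes were picked after their values were seen, and a p-value given as 0 states no size.

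The promoter windows of the other dentate markers in the table, 20 windows of 16 genes, had a median GC content of 66.0%, against 52.4% over all windows. An E-box occurred in 10 of these 20 windows (50%, against 66.2% of all windows), a GC box in 9 (45%, against 32.7%) and a TATA box in 0 (against 12.4%). These are counts of letters in short windows, with no test.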
